A study of Mus musculus with 6 samples.

Results

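The genes described here encode SR splicing factors, the serine/arginine-rich proteins that bind exons and help the spliceosome choose splice sites. All transcripts carrying the symbols Srsf1, Srsf2, Srsf3, Srsf4, Srsf5, Srsf6, Srsf7, Srsf9, Srsf10 or Srsf11 were taken, which gave 73 transcripts of 10 genes among the 128603 transcripts and 51803 symbols of the deposited table. The data came from kidneys of male BALB/c mice at postnatal week 8, kept under a light/dark cycle and sampled every 4 h, with 1 RNA sequencing library at each of ZT0, ZT4, ZT8, ZT12, ZT16 and ZT20 (zeitgeber time, in hours after lights on). The lengths of light and dark, and whether a library holds 1 mouse or several, are not given. All 6 libraries share strain, sex and age, and no genotype or treatment was compared. The study asked which kidney transcripts follow the daily cycle. The question followed here is whether the isoforms of an SR gene follow one another. With 1 library per time, a difference between 2 times has no replicate check and cannot be told apart from a difference between the kidneys sampled. In whole kidney, fewer cells of a type and less RNA per cell also cannot be told apart.

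SR proteins share 1 or more RNA-recognition motifs and a domain rich in arginine-serine repeats, whose phosphorylation by the SRPK and CLK kinases controls where the protein sits in the nucleus and what it binds. Many SR genes adjust their own output. When the protein is abundant, their pre-mRNA is spliced to include a poison exon that carries an early stop codon and sends the message to nonsense-mediated decay, or an intron is kept and the RNA stays in the nucleus or is degraded. For this reason the isoforms of an SR gene are not interchangeable, and the level of a gene summed over its isoforms can differ from the level of the message that can be translated.

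Each value is in FPKM (fragments per kilobase of transcript, scaled to library size), a level corrected for transcript length, so isoforms and genes can be set side by side. By GENCODE class, 26 of the 73 transcripts were protein coding, 22 were retained-intron transcripts, 13 were marked for nonsense-mediated decay and 12 were processed transcripts with no reading frame. A mean of at least 1 FPKM was reached by 37 of them, made up of 16 coding, 11 retained-intron, 5 decay-marked and 5 processed transcripts. The other 36 stayed under a mean of 1 FPKM, and 4 of these (Srsf5-204, Srsf5-210, Srsf6-202 and Srsf9-203) were listed at 0 in every library. Counts and fits of single transcripts and of isoform ratios cover transcripts that passed this mean filter. Gene sums, class shares and class ratios add up all transcripts of a gene, those under 1 FPKM included. Isoforms of a gene overlap, so reads were divided among them by an estimation tool that the sources used here leave unnamed, with an unknown error.

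Summed over isoforms, Srsf5 had the highest mean level (128 FPKM), followed by Srsf2 (102), Srsf3 (53.4), Srsf11 (47.2), Srsf6 (43.3), Srsf10 (28.8), Srsf7 (24.7), Srsf9 (22.6), Srsf4 (15.7) and Srsf1 (8.37). The ranges over the 6 libraries did not overlap between Srsf2 and Srsf3, Srsf6 and Srsf10, Srsf9 and Srsf4, or Srsf4 and Srsf1. All other neighbours in this order overlapped.

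**Figure D1:**
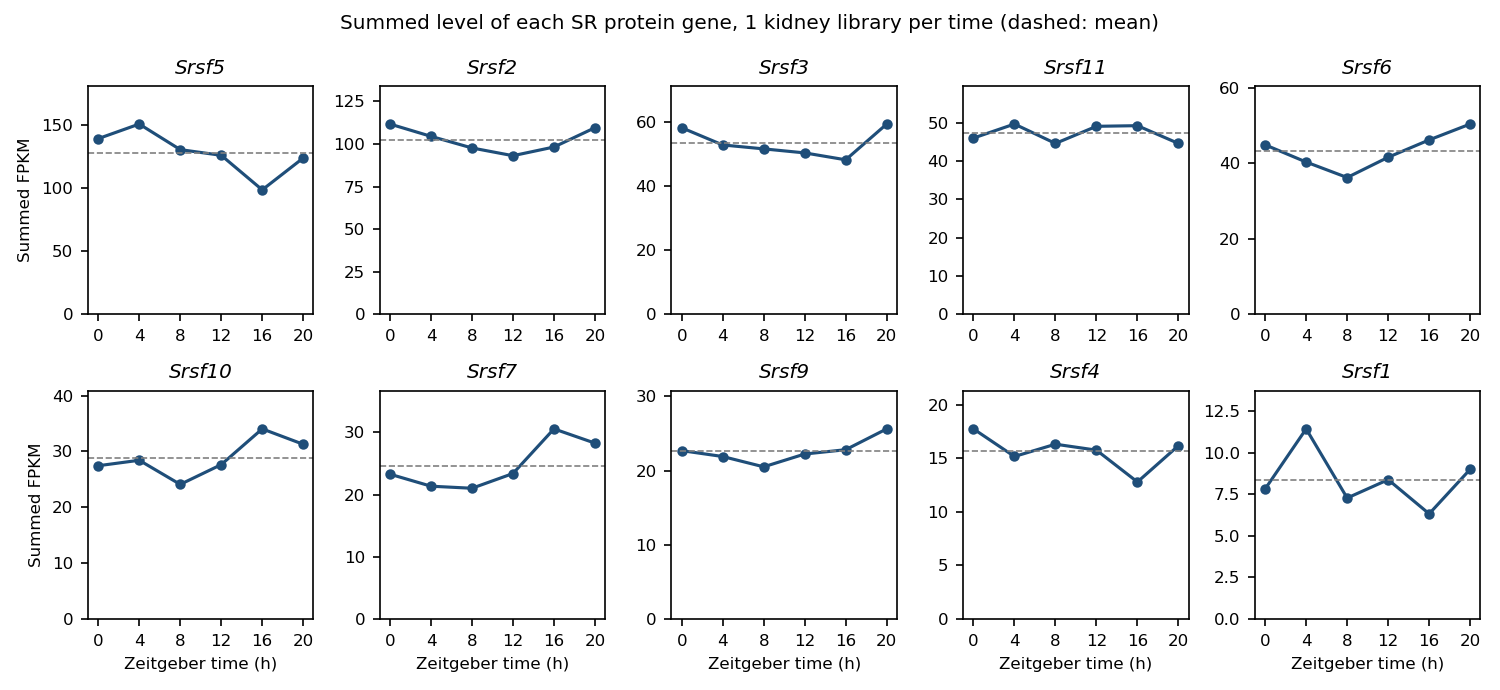
Summed FPKM of each of the 10 SR genes (y axis, from 0) against zeitgeber time in hours (x axis), with 1 point per library and the mean of the 6 libraries dashed. Srsf5 is lowest at ZT16 (98.4 FPKM), whereas Srsf7 and Srsf10 are highest in that library (30.6 and 34.0 FPKM).

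A 24 h cosine was fitted to each summed gene on log2(FPKM + 1) with limma across 12709 genes. Its amplitude is the height of the fitted wave above its mean on the log2 scale, and peak times come from the fit. At an adjusted p under 0.05 (Benjamini-Hochberg), 36 genes (0.283%) were called and none of the 10 SR genes was. At an unadjusted p under 0.05, 4 of the 10 were past the threshold against 19.1% of all genes. Without the ZT16 library, and likewise without ZT20, the count was 2. The median amplitude was 0.154 for the 10 genes and 0.128 for all genes tested. No SR gene spanned 1 or more on the log2 scale between its lowest and highest library, a span reached by 5.26% of all genes.

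Among single transcripts, limma called 0 of 21596 at an adjusted p under 0.05 (0%), and 15.2% were under 0.05 unadjusted. Of the 37 SR transcripts, 6 were under 0.05 unadjusted (Srsf7-201, Srsf6-203, Srsf10-205, Srsf5-201, Srsf2-201 and Srsf11-218). Of these, 5 are coding, and Srsf11-218 is a retained-intron transcript. That count ran from 2 without ZT20 to 13 without ZT4, and was 3 without ZT8 or without ZT16. A span of at least 1 on the log2 scale was seen in 8 of the 37 transcripts and in 16.3% of all transcripts. SR transcripts were thus near the background in both measures. The highest library was ZT4 for 11 of the 37 (18.2% of all transcripts), ZT16 for 8 (17.2%) and ZT20 for 7 (20.9%).

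The direct comparison of isoforms used the ratio of each transcript to all other transcripts of its gene, on the log2 scale with 0.1 FPKM added to both. limma called 0 of 15323 such ratios at an adjusted p under 0.05 (0%), and 9.83% were under 0.05 unadjusted. None of the 35 SR ratios was under 0.05 unadjusted. That count was 2 without ZT4 or without ZT12, 1 without ZT8 or without ZT20, 0 without ZT0 or without ZT16, 1 with 1 FPKM added, 1 at a mean of at least 5 FPKM and 2 with no filter. Their median amplitude was 0.236 against 0.311 over all ratios, and 14 of the 35 spanned at least 1 on the log2 scale against 50.6% of all ratios. No SR isoform was therefore shown to follow a 24 h wave unlike the rest of its gene. The ratios with the smallest p were those of Srsf5-201, Srsf5-212, Srsf10-201 and Srsf11-218.

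The library in which these ratios were extreme was uneven. The highest ratio was at ZT16 for 13 of the 35 SR isoforms (17.3% of all ratios), and the lowest was at ZT16 for 11 (17.6% of all) and at ZT0 for 11 (16.1% of all). At ZT4 and ZT20 the highest ratio was found for 6 (20.9% of all) and 2 (17.9% of all). Ratios of a gene are bound to each other, since a higher share of one isoform lowers the others. Within a gene, 44 of the 76 pairs of isoforms with a mean of at least 1 FPKM had a positive Pearson r over the 6 libraries and 32 a negative one, with 19 above 0.5 and 15 below -0.5. These are descriptions over 6 libraries, and the isoforms of a pair share reads, library and depth.

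Transcripts annotated as coding were also set against all other transcripts of the same gene, for the 8 SR genes where both had a mean of at least 1 FPKM. limma called 0 of 3359 such genes at an adjusted p under 0.05 (0%), and 10.4% were under 0.05 unadjusted, with 0 of the 8 SR genes. The coding part was lowest at ZT16 in 5 of the 8 (Srsf2, Srsf3, Srsf5, Srsf6 and Srsf11), as in 19.8% of all genes. In Srsf3, Srsf6 and Srsf11 the ratio spanned only 0.336, 0.306 and 0.484 on the log2 scale, and 2.86%, 2.17% and 9.91% of genes spanned less. In Srsf2 and Srsf5 it spanned 0.987 and 1.35, and 48.6% and 70.5% of genes spanned less. It was lowest at ZT4 in Srsf1, Srsf4 and Srsf10, as in 26.9% of all genes.

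**Figure D2:**
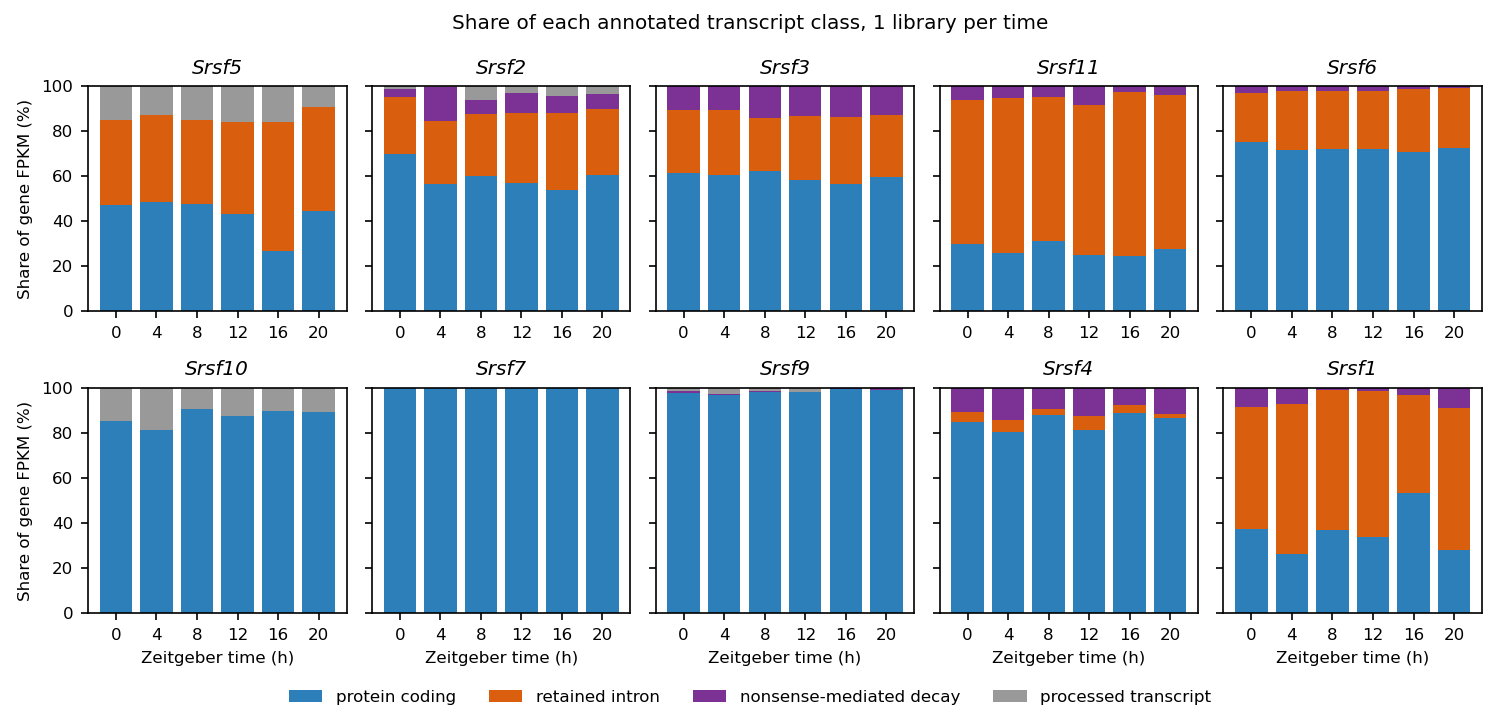
Share of each gene's summed FPKM (y axis, 0 to 100%) held by each GENCODE transcript class, for the 10 SR genes at each zeitgeber time in hours (x axis), 1 library per bar. The coding share of Srsf5 is 26.8% at ZT16 and between 43.3% and 48.3% in the other libraries.

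The SR proteins with a pair of RNA-recognition motifs are Srsf1, Srsf4, Srsf5, Srsf6 and Srsf9. Srsf5 (SRp40) was first known as a gene induced during liver regeneration. It lies on the plus strand of chromosome 12 at 80945504 to 80950507 (GRCm38). Its summed level was 139 FPKM at ZT0, 150.5 at ZT4, 130.3 at ZT8, 126 at ZT12, 98.4 at ZT16 and 124 at ZT20. The ZT16 library was the lowest and ZT4 the highest. The fitted amplitude was 0.24 ± 0.06 (SE) with a peak at ZT3.69 (limma, adjusted p = 0.190). An exact permutation over the 60 circular orders of the libraries gave p = 0.0333, where 0.0167 is the smallest it can give. Exact permutations here and below were run for SR genes only. Their p-values are unadjusted and have no share over all genes beside them. Without the ZT16 library the amplitude was 0.16 (limma, adjusted p = 0.475).

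Most Srsf5 RNA was in 3 transcripts. Srsf5-212, a retained-intron transcript, held the highest mean. Srsf5-201 and Srsf5-202 are the coding forms among these 3, and they differ at the acceptor of a late exon, where Srsf5-202 uses a site 3 bases upstream. The stretches below were chosen because they hold the late acceptor and the start of the kept intron. They do not cover the transcript ends, where these isoforms also differ. Srsf5-201 begins at base 0 of the gene and ends at base 5003. Srsf5-202 and Srsf5-212 begin at base 28 and end at base 4999. Srsf5-212 also lacks the last 4 bases of the first exon of Srsf5-201. The capitals in Srsf5-202 mark the 3 extra bases (chr12:80949717-80949719), and those in Srsf5-212 mark the stop codon that ends the reading frame of Srsf5-201 6 bases into the kept intron (1229 bases, chr12:80947866-80949094). All are on the plus strand, 5′ to 3′, from GENCODE M21 transcripts on GRCm38, and the stretches of Srsf5-201 and Srsf5-202 are spliced across an intron.
Srsf5-201: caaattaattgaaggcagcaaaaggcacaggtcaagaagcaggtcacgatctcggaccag
Srsf5-202: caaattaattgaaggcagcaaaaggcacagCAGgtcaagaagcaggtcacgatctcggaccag
Srsf5-212: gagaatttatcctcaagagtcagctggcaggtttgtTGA

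The 3 extra bases keep the reading frame, so the annotated coding part is 807 bases in Srsf5-201 and 810 in Srsf5-202. The Srsf5-212 stretch instead runs out of an exon into intron sequence and meets a stop at once.

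Srsf5-201 was at 43.2 FPKM at ZT0, 48.5 at ZT4, 40.3 at ZT8, 32.4 at ZT12, 13.0 at ZT16 and 31.2 at ZT20. The ZT16 library stood below all others. Srsf5-212 was at 50.7, 55.9, 46.6, 49.5, 54.2 and 54.6 FPKM at the same times, with no low value at ZT16. The retained-intron form thus had 53.6% to 63.6% of the sum of these 2 transcripts in 5 libraries and 80.6% at ZT16.

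The fitted amplitude of Srsf5-201 was 0.73 ± 0.18 (SE) with a peak at ZT3.93 (limma, adjusted p = 0.276), against 0.08 ± 0.06 for Srsf5-212 (adjusted p = 0.705). Srsf5-201 was not tested against Srsf5-212 alone. The tested ratio, of Srsf5-201 to all other Srsf5 transcripts together, had an amplitude of 0.67 ± 0.21 (limma, adjusted p = 0.508). That ratio's amplitude dropped to 0.34 without ZT16, and the amplitude of the Srsf5-201 level to 0.39. Much of the fitted wave thus rested on the ZT16 library.

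Srsf5-202, named after its values were seen, was at 18.6 FPKM at ZT0, 20.8 at ZT4, 17.2 at ZT8, 17.3 at ZT12, 12.02 at ZT16 and 20.4 at ZT20. It was also lowest at ZT16, by less than Srsf5-201. Srsf5-201 made up 69.9% to 70.1% of the sum of Srsf5-201 and Srsf5-202 at ZT0, ZT4 and ZT8, 65.2% at ZT12, 52.0% at ZT16 and 60.4% at ZT20. The 3-base difference is short for a read, and the annotated ends of these transcripts differ too. How much of this split rests on reads that cross the junction is unknown.

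Coding Srsf5 transcripts together held 47.1% of the gene's FPKM at ZT0, 48.3% at ZT4, 47.5% at ZT8, 43.3% at ZT12, 26.8% at ZT16 and 44.6% at ZT20. Retained-intron transcripts held between 37.5% and 46.0% outside ZT16 and 57.2% at ZT16. The log2 ratio of coding to other transcripts at ZT16 lay 1.28 below the median of the other 5 libraries (-1.28), and 1.73% of the 3359 genes lay lower. As a 24 h wave the ratio had an amplitude of 0.51 ± 0.20 (limma, adjusted p = 0.542), an exact permutation p of 0.0333, and an amplitude of 0.18 without ZT16. This ZT16 contrast was picked after its values were seen and is a description of 1 library.

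**Figure D3:**
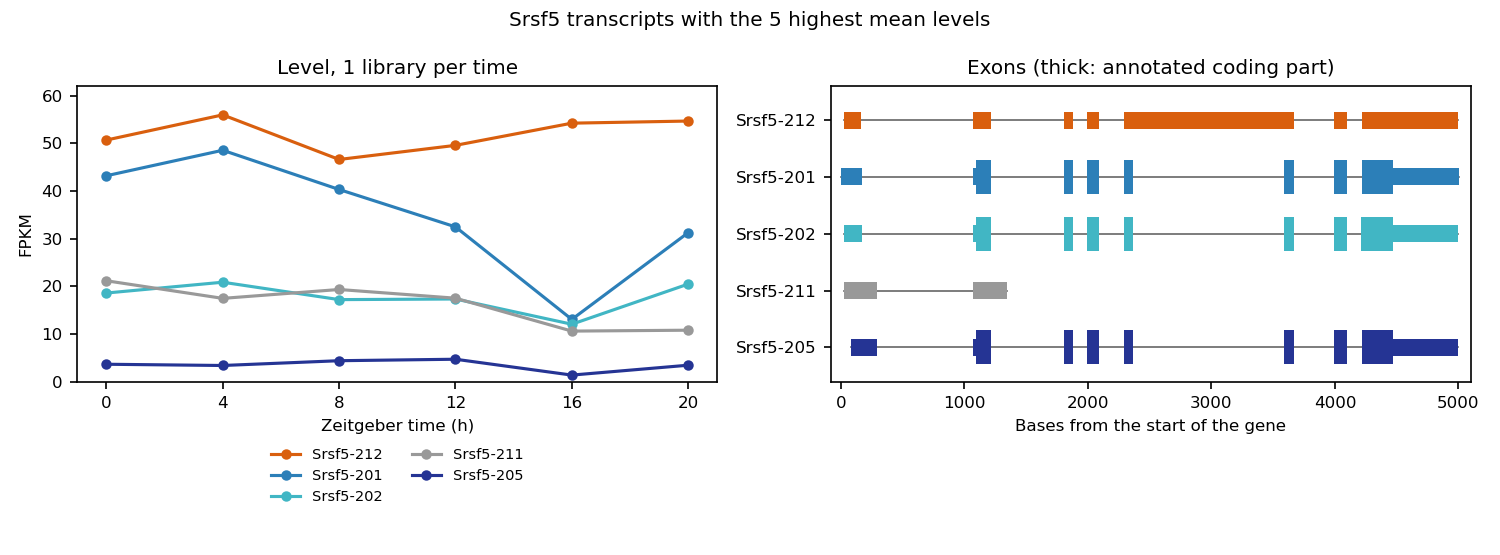
Left, FPKM (y axis, from 0) of the 5 Srsf5 transcripts with the highest means against zeitgeber time in hours, 1 library per point; right, their exons (boxes) and introns (lines) in bases from the start of the gene, with the annotated coding part thicker. Srsf5-201 reaches its lowest level, 13.0 FPKM, at ZT16, while Srsf5-212, with the long kept intron, is at 54.2 FPKM.

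Among the remaining Srsf5 transcripts, named after their values were seen, the 2-exon processed transcript Srsf5-211 ran from 10.6 FPKM at ZT16 and 10.8 at ZT20 to 21.1 at ZT0. A further coding form, Srsf5-205, had a mean of 3.47 FPKM and was lowest at ZT16 (1.35 FPKM). Srsf5-206 carries an extra exon of 376 bases inside the intron that Srsf5-212 keeps. It was listed at 0 at ZT0 and was at 1.75 FPKM at ZT4, 0.306 at ZT8, 2.63 at ZT12, 5.16 at ZT16 and 0.872 at ZT20, highest in the library where Srsf5-201 was lowest.

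Srsf6 (SRp55) lies on the plus strand of chromosome 2 at 162931528 to 162937121. Its summed level was 44.9 FPKM at ZT0, 40.3 at ZT4, 36.2 at ZT8, 41.6 at ZT12, 46.2 at ZT16 and 50.4 at ZT20. The lowest value was at ZT8 and the highest at ZT20, and the fitted wave had an amplitude of 0.21 ± 0.04, peaking at ZT19.5 (limma, adjusted p = 0.159; exact permutation p = 0.0167, the smallest it can give).

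Coding Srsf6-203 and retained-intron Srsf6-204, which keeps a whole intron of 1283 bases, had the same lowest and highest libraries. Srsf6-203 was at 33.7, 28.9, 26.0, 30.005, 32.8 and 36.5 FPKM from ZT0 to ZT20. Srsf6-204 was at 9.78, 10.6, 9.45, 10.7, 12.8 and 13.5 FPKM. Their Pearson r over the 6 libraries was 0.712. The coding share kept within 70.9% and 75.1%.

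The decay-marked Srsf6-201 had a mean of only 0.832 FPKM, so it passed no filter, and is named because it holds the poison exon (268 bases). It was at 1.39 FPKM at ZT0, 0.860 at ZT4, 0.747 at ZT8, 0.935 at ZT12, 0.630 at ZT16 and 0.431 at ZT20. The highest value was at ZT0 and the lowest at ZT20. In these libraries Srsf6-203 was at 33.7 and 36.5 FPKM, in both above its values at the other times.

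Srsf4 (SRp75), the largest SR protein of this group, lies on the plus strand of chromosome 4 at 131873617 to 131901706. It overlaps A930004J17Rik on the same strand and Gm12992 on the opposite strand. Its summed level ran from 12.8 FPKM at ZT16 to 17.7 at ZT0. Coding Srsf4-202 was at 15.1 FPKM at ZT0, 12.2 at ZT4, 14.3 at ZT8, 12.8 at ZT12, 11.4 at ZT16 and 14.0 at ZT20. Decay-marked Srsf4-204, which carries 3 extra exons, was at 1.78, 1.99, 1.47, 1.66, 0.896 and 1.79 FPKM. Both were lowest at ZT16, and the decay-marked share of the gene ran from 7.56% at ZT16 to 14.3% at ZT4.

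Srsf9 (SRp30c) lies on the plus strand of chromosome 5 at 115327177 to 115333080 and was almost wholly in its coding form, with a coding share of 96.7% to 99.7%. Srsf9-201 was at 22.1 FPKM at ZT0, 21.2 at ZT4, 20.1 at ZT8, 21.7 at ZT12, 22.7 at ZT16 and 25.4 at ZT20. The summed gene had an amplitude of 0.12 ± 0.05 (limma, adjusted p = 0.344; exact permutation p = 0.0167). The next transcript, Srsf9-202, reached at most 0.590 FPKM.

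Srsf1 (SF2/ASF), the founding member of the family and a general splicing factor, lies on the plus strand of chromosome 11 at 88047373 to 88053755 and overlaps Gm11508 on the opposite strand. Its main coding transcript Srsf1-205 had a narrow range, at 2.71 FPKM at ZT0, 2.78 at ZT4, 2.61 at ZT8, 2.44 at ZT12, 2.64 at ZT16 and 2.47 at ZT20. The retained-intron transcript Srsf1-203 was more abundant than Srsf1-205 in every library and less even, at 4.10, 7.61, 4.35, 5.43, 2.68 and 5.70 FPKM. ZT4 was the highest and ZT16 the lowest library. Despite its class, Srsf1-203 lies within the last exon of Srsf1-205 and leaves out 881 bases of it. It keeps no intron of Srsf1-205.

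The coding share of Srsf1 was 26.3% at ZT4 and 53.5% at ZT16. Srsf1-205 alone held 24.4% and 41.7% of the gene in these libraries. At ZT16 a further 11.8% was Srsf1-201, named after its values were seen, a coding transcript with a mean of 0.261 FPKM that was at 0.746 FPKM at ZT16. At ZT16 the log2 ratio of coding to other transcripts lay 1.15 above the median of the other libraries, and 96.4% of the 3359 genes lay lower. Srsf1 and Srsf5 thus stood on opposite sides of the other genes in the same library. The Srsf1 ratio rests on annotated classes and does not measure intron retention, since coding Srsf1-201 is the form that keeps a whole intron (196 bases) of Srsf1-205. The amplitude of the Srsf1 ratio was 0.43 ± 0.27 (limma, adjusted p = 0.729).

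**Figure D4:**
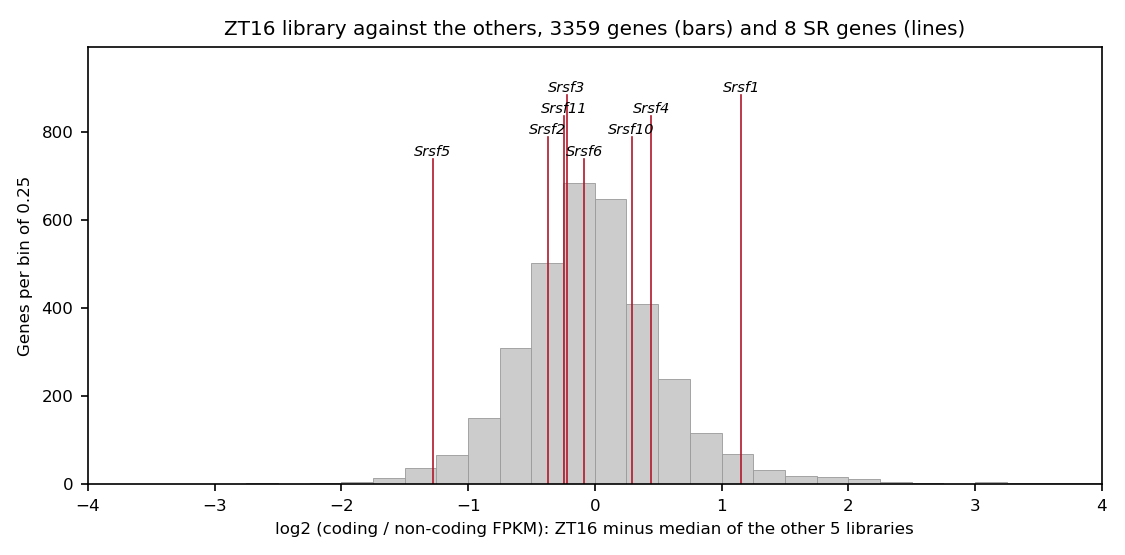
Distribution over 3359 genes (bars, genes per bin of 0.25) of the log2 ratio of coding to non-coding FPKM at ZT16 minus the median of the other 5 libraries (x axis), with the 8 SR genes tested as vertical lines. Srsf5 lies at -1.28 and Srsf1 at 1.15; the other 6 lie between -0.37 and 0.44.

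The SR proteins with a single RNA-recognition motif are Srsf2, Srsf3 and Srsf7. Srsf2 (SC35), which marks nuclear speckles, lies on the minus strand of chromosome 11 at 116849901 to 116853094. Its summed level was 112 FPKM at ZT0, 105 at ZT4, 97.7 at ZT8, 93.1 at ZT12, 98.2 at ZT16 and 109.6 at ZT20, highest at ZT0 and lowest at ZT12. The amplitude was 0.13 ± 0.04 with a peak at ZT23.4 (limma, adjusted p = 0.238; exact permutation p = 0.0167). Srsf2 overlaps Mettl23 and Mfsd11 on the opposite strand; the library kit marks strand, but whether the counting used it is not given.

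Coding Srsf2-201 was at 76.5 FPKM at ZT0, 59.0 at ZT4, 58.5 at ZT8, 53.0 at ZT12, 52.6 at ZT16 and 66.0 at ZT20. Srsf2-203, which keeps a whole intron of 1059 bases, was at 28.4, 29.0, 26.8, 29.0, 33.9 and 32.4 FPKM. The coding form was lowest and the retained-intron form highest at ZT16. Across the 6 libraries their Pearson r was -0.227, and the ratio of Srsf2-201 to the rest of the gene had an amplitude of 0.27 ± 0.16 (limma, adjusted p = 0.707).

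The decay-marked Srsf2-204 was at 2.33 FPKM at ZT0, 13.3 at ZT4, 4.63 at ZT8, 6.40 at ZT12, 3.69 at ZT16 and 3.12 at ZT20. The ZT4 library alone lifted the decay-marked share of Srsf2 to 15.1%, against 3.42% at ZT0 and at most 8.84% elsewhere. As a wave its ratio had an amplitude of 0.86 ± 0.43 (limma, adjusted p = 0.638).

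Srsf3 (SRp20), the smallest SR protein, lies on the plus strand of chromosome 17 at 29032628 to 29043373. Its summed level was 58.2 FPKM at ZT0, 52.8 at ZT4, 51.6 at ZT8, 50.4 at ZT12, 48.2 at ZT16 and 59.4 at ZT20. Coding Srsf3-202 was at 35.7, 31.9, 32.2, 29.3, 27.3 and 35.4 FPKM, lowest at ZT16. The table and GENCODE differ in length for 4 of the 5 Srsf3 transcripts, so these values depend on an annotation other than the one used for classes.

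Srsf3-201 holds the poison exon of the gene, 456 bases long. Its stretch is shown with the stop codon in capitals, 31 bases into that exon, spliced from chr17:29038595-29039487 on the plus strand, with those of the poison exons of Srsf6-201 (stop 149 bases in, chr2:162932113-162932966, plus strand) and Srsf11-206 (stop 20 bases into an exon of 109 bases, chr3:158024209-158026754, minus strand). They show that the reading frame closes inside the extra exon in each case.
Srsf3-201: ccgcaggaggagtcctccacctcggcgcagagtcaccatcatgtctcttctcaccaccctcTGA
Srsf6-201: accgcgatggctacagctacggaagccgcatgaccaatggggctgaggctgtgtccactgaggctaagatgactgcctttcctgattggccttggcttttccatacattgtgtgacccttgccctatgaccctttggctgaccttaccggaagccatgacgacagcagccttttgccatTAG
Srsf11-206: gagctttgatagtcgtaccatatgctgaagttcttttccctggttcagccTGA

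In each of these sequences the capitals mark the first stop codon in frame with the annotated start. Of the 3, Srsf3-201 was the most abundant, at 6.24 FPKM at ZT0, 5.75 at ZT4, 7.38 at ZT8, 6.64 at ZT12, 6.64 at ZT16 and 7.65 at ZT20. It was lowest at ZT4 and highest at ZT20, and its share of the gene stayed between 10.7% and 14.3%. Retained-intron Srsf3-204, which keeps a pair of introns, was at 10.7, 10.9, 8.98, 9.73, 11.6 and 12.1 FPKM.

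Srsf7 (9G8), which carries a zinc knuckle beside its RNA-recognition motif, lies on the minus strand of chromosome 17 at 80200080 to 80207307. The table lists a single Srsf7 transcript, so its isoforms cannot be compared here. Srsf7-201 was at 23.3 FPKM at ZT0, 21.4 at ZT4, 21.03 at ZT8, 23.4 at ZT12, 30.6 at ZT16 and 28.3 at ZT20. ZT16 and ZT20 stood above the other 4 libraries. Its amplitude of 0.26 ± 0.05 was the largest among the 10 summed genes, and its fitted peak fell at ZT17.8 (limma, adjusted p = 0.139; exact permutation p = 0.05).

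Srsf10 and Srsf11 stand apart from the classical SR proteins. Srsf10 (SRp38) is dephosphorylated in heat shock and mitosis and then acts as a general splicing repressor. It lies on the plus strand of chromosome 4 at 135855747 to 135869908. Its coding isoforms end in alternative last exons, and the sequences that follow show where they part. The capitals mark the last exon, which begins at chr4:135863729 in Srsf10-204 and at chr4:135867126 in Srsf10-205, after the same upstream exon, on the plus strand of GRCm38 from GENCODE M21.
Srsf10-204: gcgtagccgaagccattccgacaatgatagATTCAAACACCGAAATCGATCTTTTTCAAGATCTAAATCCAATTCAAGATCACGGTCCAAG
Srsf10-205: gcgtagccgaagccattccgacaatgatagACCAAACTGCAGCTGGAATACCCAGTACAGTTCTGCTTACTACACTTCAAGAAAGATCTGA

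In Srsf10-205 the stop codon follows 58 bases into the last exon, whereas in Srsf10-204 it follows 295 bases in, so the annotated coding parts are 549 and 786 bases. The long form of the protein is known for its longer arginine-serine domain.

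Srsf10-205 was at 11.1 FPKM at ZT0, 10.98 at ZT4, 9.68 at ZT8, 12.3 at ZT12, 15.9 at ZT16 and 13.6 at ZT20. Srsf10-204 was at 7.64, 7.41, 7.43, 8.60, 7.54 and 8.57 FPKM. The short form had its highest level at ZT16, where Srsf10-204 lay within the range of its other libraries. The amplitude was 0.28 ± 0.07 for Srsf10-205 (limma, adjusted p = 0.273) and 0.06 ± 0.06 for Srsf10-204 (limma, adjusted p = 0.811). The ratio of Srsf10-205 to the rest of the gene had an amplitude of 0.23 ± 0.10 (limma, adjusted p = 0.605). That ratio spanned 0.466 on the log2 scale, and only 10.4% of all isoform ratios spanned less.

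Summed over the isoforms that share each last exon, a grouping chosen after the values were seen, the short form was at 12.4 FPKM at ZT0, 13.0 at ZT4, 11.4 at ZT8, 14.0 at ZT12, 19.1 at ZT16 and 16.4 at ZT20. The long form lay between 10.1 and 11.5 FPKM in all 6 libraries. The short form's share of both was 53.2%, 56.2%, 52.4%, 57.7%, 62.5% and 58.8%. Its highest share was at ZT16 and its lowest at ZT8. This grouping was not fitted and has no background over other genes. The processed transcript Srsf10-201 was lowest at ZT16, at 1.44 FPKM at ZT0, 1.90 at ZT4, 0.759 at ZT8, 1.38 at ZT12, 0.449 at ZT16 and 0.819 at ZT20.

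**Figure D5:**
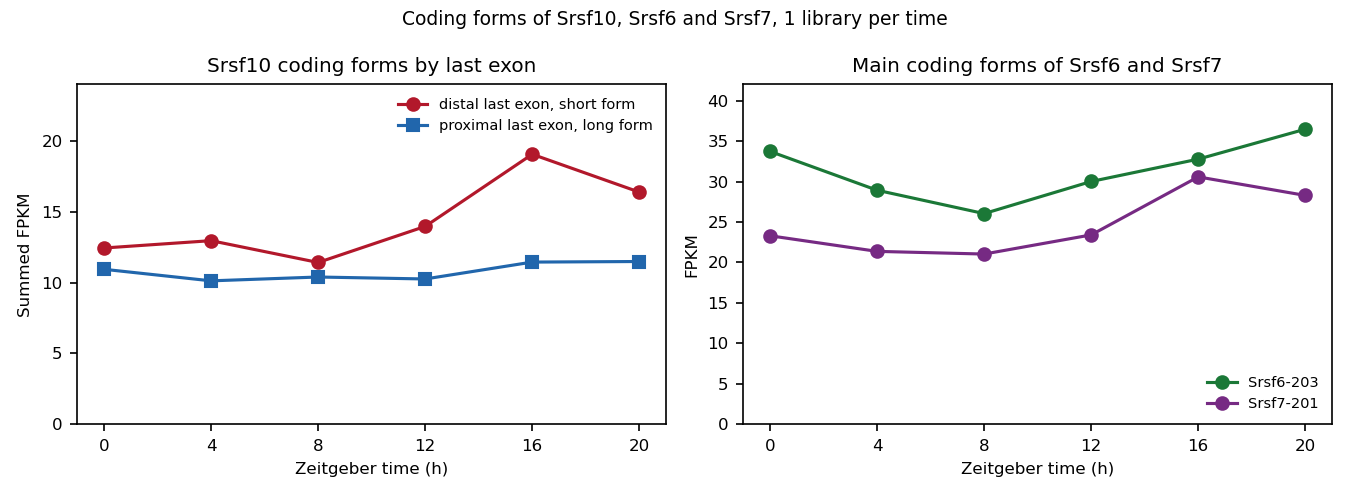
Left, summed FPKM (y axis, from 0) of Srsf10 coding transcripts with the distal last exon (Srsf10-203 and Srsf10-205, the short form) and with the proximal last exon (Srsf10-202 and Srsf10-204, the long form) against zeitgeber time in hours; right, FPKM of Srsf6-203 and Srsf7-201. With 1 library per point, the short form of Srsf10 reaches 19.1 FPKM at ZT16 and the long form stays between 10.1 and 11.5 FPKM.

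Srsf11 (p54), an SR-related protein with a single RNA-recognition motif, lies on the minus strand of chromosome 3 at 158010473 to 158036639 and has 19 transcripts in the table. Its summed level was the most even of the 10 genes, from 44.6 to 49.7 FPKM (amplitude 0.03 ± 0.05; limma, adjusted p = 0.923). Retained-intron transcripts held 63.7% to 72.5% of it and coding ones 24.6% to 31.3%. The retained-intron share was highest at ZT16. These shares rest on annotated classes. None of the retained-intron transcripts of Srsf11 keeps a whole intron of coding Srsf11-202. Against that form, Srsf11-208 carries 1988 extra bases and Srsf11-203 an extra exon of 823 bases. Srsf11 overlaps Gm43362 on the same strand, so some reads may belong to either.

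By mean level the most abundant Srsf11 transcripts were the retained-intron forms Srsf11-208 (9.57 FPKM) and Srsf11-203 (8.95), with coding Srsf11-202 close behind (8.83). Srsf11-208 was at 9.39 FPKM at ZT0, 9.61 at ZT4, 8.51 at ZT8, 9.67 at ZT12, 10.7 at ZT16 and 9.49 at ZT20, and Srsf11-203 ran from 7.75 FPKM at ZT0 to 10.5 at ZT4. The main coding form Srsf11-202, named after its values were seen, ran from 7.91 FPKM at ZT20 to 10.01 at ZT4. The order varied between libraries. At ZT8 Srsf11-202 (9.14 FPKM) was above both Srsf11-208 (8.51) and Srsf11-203 (8.36). Srsf11-218 was at 3.32, 3.605, 3.42, 4.52, 5.46 and 4.27 FPKM, highest at ZT16, with an amplitude of 0.27 ± 0.08 (limma, adjusted p = 0.312). The poison-exon transcript Srsf11-206 shown above was at 0.724, 2.09, 1.36, 2.12, 1.06 and 0.998 FPKM, with its higher values at ZT4 and ZT12.

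Facts of the libraries stand beside these results. The summed FPKM per library was 534448 to 577493, and retained-intron transcripts of all genes held 2.10% to 2.29% of it, so ZT16 did not stand out in that total. All 11 kidney markers were present in the tissue (2745 to 3066 FPKM summed). Of these, 4 were under 0.05 unadjusted (36.4%, against 19.1% of all genes) and none adjusted. Adrenal markers summed to at most 0.274 FPKM, with Cyp11b1 and Th listed at 0 throughout, and skeletal muscle markers to at most 0.105, with Myh4 at 0. Adipose markers summed to 2.67 FPKM at ZT8 and at most 0.107 elsewhere, and immune markers to 3.31 to 4.99 FPKM. Of the blood markers, all 5 were under 0.05 unadjusted (100%, against 19.1% of all genes). Adjusted, 2 of the 5 (Hbb-bs and Hba-a1) passed, against 0.283% of all genes. The blood markers summed to 171 FPKM at ZT0, 135 at ZT4, 124 at ZT8, 207 at ZT12, 314 at ZT16 and 297 at ZT20. Their part in the ZT16 values of Srsf5, Srsf7 and Srsf10 was not tested.

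Genes known to respond to temperature had a wide span, and several had their extreme value at ZT16. Of the 9 listed, 8 were under 0.05 unadjusted (88.9%, against 19.1% of all genes) and none adjusted. Their median stood 0.95 above the gene mean at ZT16 on the log2 scale, but the list mixed directions. The heat shock genes in it were highest at ZT16, whereas the cold-inducible Cirbp was lowest there (9.005 FPKM, against 37.5 at ZT0). The cold-inducible Rbm3 was at 57.0 FPKM at ZT16, below its mean of 60.7 but above its values at ZT0 (55.1) and ZT20 (42.1). Dnajb1, a heat shock co-chaperone, was at 8.32 FPKM at ZT0, 9.07 at ZT4, 9.72 at ZT8, 13.5 at ZT12, 25.1 at ZT16 and 14.9 at ZT20 (limma, adjusted p = 0.130). Hspb1, a small heat shock protein, was at 5.71, 3.201, 5.19, 5.58, 21.9 and 12.2 FPKM (limma, adjusted p = 0.133). Their part in the SR isoform values at ZT16 was not tested.

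Other splicing and decay genes were read from lists chosen for their roles. No listed gene of the groups that follow passed an adjusted p under 0.05. Among 20 SR-like genes tested, 6 were under 0.05 unadjusted, or 30% against 19.1% of all genes. Srrm1, a splicing coactivator, was at 28.4 FPKM at ZT0, 35.1 at ZT4, 32.2 at ZT8, 30.4 at ZT12, 18.1 at ZT16 and 21.96 at ZT20, lowest at ZT16 (limma, adjusted p = 0.130). Tra2a, a splicing activator that binds purine-rich exon enhancers, was at 11.1, 15.8, 14.5, 19.8, 27.4 and 21.6 FPKM, highest at ZT16 (limma, adjusted p = 0.206).

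Of the SR kinases and phosphatases, 2 of 12 tested were under 0.05 unadjusted, or 16.7% against 19.1% of all genes. Clk3, a kinase of SR proteins, ran from 12.5 FPKM at ZT4 to 17.7 at ZT16, and Dyrk1b from 4.59 at ZT16 to 8.76 at ZT0 (limma, adjusted p = 0.218 for each). Of the hnRNP genes, whose products often act against SR proteins at the same exons, 5 of 24 were under 0.05 unadjusted, or 20.8% against 19.1% of all genes. Hnrnpd (AUF1) was at 55.3 FPKM at ZT0, 60.8 at ZT4, 59.96 at ZT8, 50.3 at ZT12, 36.5 at ZT16 and 42.2 at ZT20 (limma, adjusted p = 0.104), and Hnrnpr ran from 15.5 FPKM at ZT16 to 24.4 at ZT4 (limma, adjusted p = 0.178).

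Of the U1, U2 and U2AF genes, 1 of 17 tested was under 0.05 unadjusted, or 5.88% against 19.1% of all genes. This was Snrpa, the U1 snRNP A protein, which was at 17.1 FPKM at ZT12 and 30.6 at ZT20 (limma, adjusted p = 0.160), and Sf3b4 followed at 8.13 to 10.7 FPKM (limma, adjusted p = 0.333). Of the nonsense-mediated decay genes, 2 of 15 were under 0.05 unadjusted, or 13.3% against 19.1% of all genes, namely Rbm8a at 13.6 to 18.7 FPKM and Magohb at 1.78 to 2.88 FPKM, both parts of the exon junction complex (limma, adjusted p = 0.175 and 0.255). Tnpo3, which carries SR proteins into the nucleus, lay between 19.1 and 23.1 FPKM (limma, adjusted p = 0.865).

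The median profile of the 10 summed SR genes was highest at ZT20 (0.12 above the gene mean, log2) and lowest at ZT8 (0.11 below it, -0.11). Over 8470 other symbols with a mean of at least 5 FPKM, the profiles most like it over the 6 libraries were those of Zfand5 (Pearson r = 0.990), Prlr (0.983) and Zfp451 (0.981). They were picked as the highest r of all symbols compared. Over only 6 points, such a pick can reach a high r by selection alone, so these values are no test of likeness. Prlr spanned far more than the SR genes, from 0.483 FPKM at ZT8 to 23.0 at ZT20.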

How the data were processed

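Kidney RNA in 6 libraries, 1 per zeitgeber time, was analysed. Per the labels, total RNA was extracted from frozen kidney and made into libraries that keep strand. The submitters' processing notes name bcl2fastq 2.20 and mm9. Aligner and quantification tool were not given in the sources used here. Per the file headers, the table the authors deposited holds FPKM per Ensembl transcript, and these were used unchanged. FPKM holds no counts, so depth is unknown and no counting interval is given; 99.5% to 99.9% of low values differed from each other, so whole reads were not recovered.

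Classes and positions came from GENCODE M21 (GRCm38) by transcript ID. All 73 SR transcripts lay within 200 bases of the table's locus, and 68 had the table's length, so positions are given on GRCm38 although the notes name mm9.

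Levels were summed per gene or kept per transcript, filtered at a mean of at least 1 FPKM and set on log2(FPKM + 1), which understates changes of low transcripts. Ratios used 0.1 FPKM added. limma 3.58.1 (R 4.3.3) fitted a 24 h cosine and sine to the 6 libraries (eBayes with trend, 3 residual degrees of freedom, Benjamini-Hochberg over all features). Its p-values set the fitted wave against the departure of single libraries from it, and hold no measure of the spread between animals at 1 time. Exact permutations ran over 60 circular orders, for single SR genes only and without adjustment. The fits were run on simulated waves with larger amplitudes than those of the summed SR genes and the same noise for all features. That run does not show whether waves as small as theirs could be found. Named transcripts are the top 2 per gene, the top decay-marked and retained-intron ones at 1 FPKM or more, and the 4 smallest p per fit; listed genes are the 2 smallest p. The members and lists were chosen with earlier results of these data known. Alternatives were other pseudocounts, filters, scalings, moderation, thresholds, gene summaries and class definitions, and leaving out each library.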

Additional observations from a re-analysis of the deposited data

How the results depend on the processing

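The count of summed genes past adjusted p 0.05 was 36; it was 121 at adjusted p 0.1, 0 with no filter, 7 by limma without trend and 2 with the most abundant transcript in place of the sum. Leaving out 1 library in turn gave 0 to 3. Counts of transcripts, isoform ratios and class ratios were 0 under every alternative run. No SR feature passed an adjusted p of 0.05 in 251 alternative amplitudes, with the lowest adjusted p at 0.104. The Srsf5 amplitude with the most abundant transcript, Srsf5-212, was 0.0763 with another peak (adjusted p = 0.667), since that transcript does not share the low ZT16 value of Srsf5-201. Exact permutation gave p = 0.05 for Srsf7, no longer under 0.05, and brought Srsf9 (0.0167) and the Srsf5 class ratio (0.0333) under it. These permutation p-values are unadjusted and were computed for SR genes only, so no share over all genes can be set beside them. No paired analysis was possible because each time has 1 library. Depth is unknown, so the counting error of low isoforms cannot be given.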
